A study of Mus musculus with 6 samples.

Results

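*Smad6* and *Smad7*, which encode the inhibitory SMAD proteins, were described region by region in lung endothelial cells (EC) of infant and young adult mice. The members were the differentially methylated regions (DMRs) listed by the study whose midpoint lay in either gene body or within 100 kb of it, namely at 63853076 to 64122059 of chromosome 9 for *Smad6* and at 75267365 to 75495934 of chromosome 18 for *Smad7* (mouse build mm10). Of 18333 listed DMRs, 118 met this rule, with 75 around *Smad6* and 43 around *Smad7*. Methylation was measured by bisulfite sequencing of the whole genome after tagmentation (T-WGBS), in which a transposase cuts DNA and adds adaptors before unmethylated cytosines are converted. The samples were 3 infant and 3 young adult preparations of C57BL/6N lung EC. The study's methods give postnatal days 8 to 10 for infants and 8 to 12 weeks for young adults, name female mice from a commercial breeder, and describe sorting of live CD31+CD34+ cells that lacked PTPRC, LYVE1, LY76 and PDPN. No allele or treatment differed between the groups. By the wording of a figure legend each sample came from a single mouse, and the sorted cells may hold several kinds of EC. The labelled cell type was not checked against markers, because the file analysed holds no expression.

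The listed value of a DMR is the authors' mean methylation per group, here given as a percentage. The file holds no value per sample and no read depth, so no spread between replicates, interval or test could be attached to any level below. The DMRs were selected on these same values, since the study required a t-test at each of at least 3 consecutive CpGs and group means at least 10% apart. Differences between infant and young adult EC are therefore given as a description of what was listed. A stretch without a listed DMR may have had equal methylation in both groups or too little coverage, and these cannot be told apart here.

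SMAD6 and SMAD7 belong to the SMAD family, which carries signals of the TGFβ and BMP ligands from receptors at the cell surface to the nucleus. Ligands bring type I and type II receptors together, the receptors phosphorylate the receptor-regulated SMADs, and these enter the nucleus with the common partner SMAD4. The inhibitory SMADs bind activated type I receptors, compete with receptor-regulated SMADs and recruit ubiquitin ligases such as SMURF1 and SMURF2 to the receptors. SMAD6 acts mainly on BMP receptors and SMAD7 on both branches. Their genes are themselves transcribed in response to BMP and TGFβ and to blood flow, so that they form a negative feedback in EC. DNA methylation at CpG dinucleotides within introns is often low where enhancers are active.

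To show what the DMRs of *Smad6* look like, 7 reference sequences are given from mm10 (RefSeq) in lower case, with every CpG in capitals. The first 4 are from intron 3, and each shows an extreme of the gene body among DMRs of at most 300 bases, which are the largest loss, the most CpGs, the lowest young adult mean and the smallest loss. The other 3 were chosen after their values were seen, as the only DMR over exon 3, the largest loss of both flanks and the gain with the lowest infant mean around *Smad6*.
Largest loss, chr9:64002846-64002944, plus strand: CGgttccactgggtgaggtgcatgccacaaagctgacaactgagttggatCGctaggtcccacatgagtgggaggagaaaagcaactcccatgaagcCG
Most CpGs, chr9:63975789-63975970, plus strand: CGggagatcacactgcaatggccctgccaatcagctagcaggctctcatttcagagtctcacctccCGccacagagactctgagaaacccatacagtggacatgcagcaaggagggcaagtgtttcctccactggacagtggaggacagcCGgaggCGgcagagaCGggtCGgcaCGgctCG
Lowest young adult mean, chr9:63955850-63955990, plus strand: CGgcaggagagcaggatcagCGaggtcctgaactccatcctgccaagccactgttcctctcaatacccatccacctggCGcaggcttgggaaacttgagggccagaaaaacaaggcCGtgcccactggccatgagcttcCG
Smallest loss, chr9:64006081-64006247, plus strand: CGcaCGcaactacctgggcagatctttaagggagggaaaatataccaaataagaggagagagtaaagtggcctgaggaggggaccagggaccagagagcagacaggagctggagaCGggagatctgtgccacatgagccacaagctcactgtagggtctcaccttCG
Exon 3, chr9:64007508-64007666, plus strand: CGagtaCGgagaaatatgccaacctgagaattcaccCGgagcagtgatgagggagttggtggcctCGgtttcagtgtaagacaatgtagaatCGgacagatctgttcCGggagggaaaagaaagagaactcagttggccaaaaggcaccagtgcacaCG
Flank loss, chr9:64085519-64085725, plus strand: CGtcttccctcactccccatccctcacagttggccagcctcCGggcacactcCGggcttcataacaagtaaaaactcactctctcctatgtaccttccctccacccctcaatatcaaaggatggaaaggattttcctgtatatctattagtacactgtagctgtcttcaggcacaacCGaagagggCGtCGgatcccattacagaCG
Flank gain, chr9:63927606-63927634, plus strand: CGgtctggctctcagcccagCGgggacCG

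The sequence with the largest loss had 3 CpGs spread over 99 bp and went from 76.4% in infant EC to 25.8% in young adult EC, a difference of -50.6 percentage points. The sequence with the most CpGs held 8 in 182 bp, 6 of them crowded at its end, and was at 71.6% and 21.9%. In the sequence with the lowest young adult mean, 5 CpGs stood at 27.1% in infant EC and 3.19% in young adult EC. The smallest loss went from 61.3% to 43.9% over 4 CpGs in 167 bp, and its GC content of 54.5% was the lowest of the 4 (55.6%, 59.9% and 59.6% in the others). CpGs stood far apart over most of these sequences.

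All 61 DMRs in the *Smad6* body and all 26 in the *Smad7* body were lower in young adult than in infant EC. Among all listed DMRs 45.9% were lower in young adult EC. The genes were chosen with earlier results of these data known, so nothing is read from the difference. In the flanks 19 of 31 DMRs were lower and 12 were higher, so that the direction was mixed outside the bodies. For their CpG content, the bodies held more DMRs than the flanks. The study had already singled out these genes for their clusters of DMRs, so nothing is read from this excess either. *Smad6* had 48.5 DMRs per 1000 reference CpGs in its body, 5.60 in the 100 kb upstream and 5.97 in the 100 kb downstream, and the body exceeded both flanks together 8.38-fold. *Smad7* had 36.4 in its body, 3.19 upstream and 8.80 downstream, a ratio of 6.27. With neighbouring DMRs at most 500 bp apart joined, the ratios were 3.44 in *Smad6* and 4.41 in *Smad7*. Over the whole genome the list held 0.859 DMRs per 1000 CpGs, and all 4 flanks lay above that value.

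**Figure D1:**
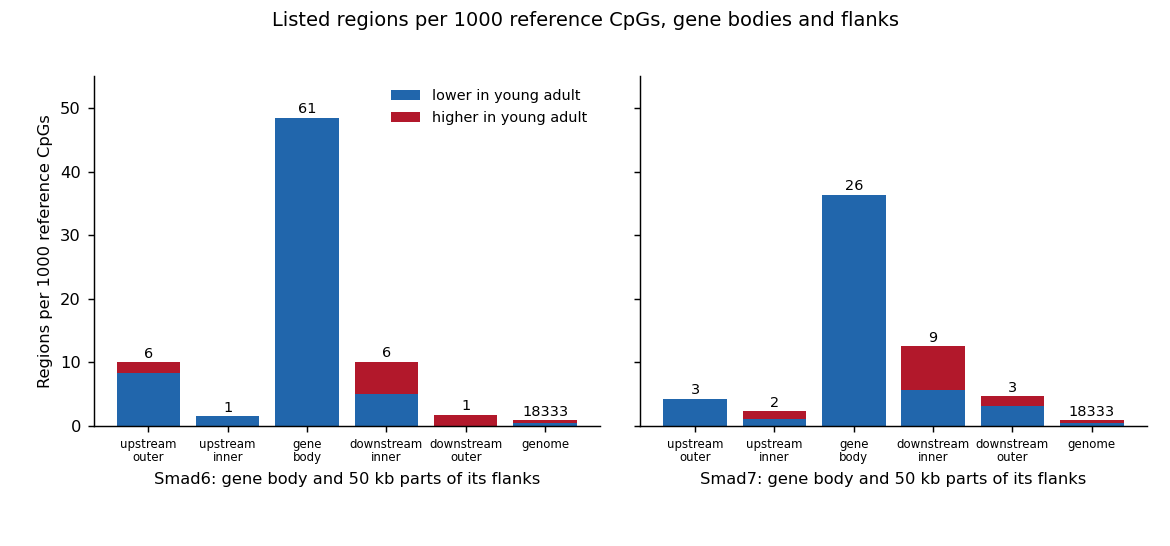
Listed DMRs per 1000 reference CpGs (y axis) in the gene body and in the inner and outer 50 kb of each flank of Smad6 (left) and Smad7 (right), beside the whole genome, with the number of DMRs above each bar. The bodies reach 48.5 and 36.4 with losses only, while the inner downstream flanks reach 10.1 and 12.6 and mix losses with gains.

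*Smad6* occupies 63953076 to 64022059 of chromosome 9 on the minus strand, with 4 exons and a coding sequence of 1488 bp. Its DMRs covered 349 of the 1259 CpGs of the body (27.7%) and 25.1% of its length. Infant means ran from 27.1% through a median of 69.0% to 91.6%, and young adult means from 3.19% through 28.3% to 67.7%. The median difference was -36.8 percentage points and the middle 50% of DMRs lay between -41.2 and -31.6. The infant mean exceeded 50% in 51 of the 61 DMRs, and in 45 of the 61 young adult EC kept less than 50% of the infant level. Young adult EC reached less than 10% in 8 DMRs and stayed above 40% in 12.

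The gene had no listed DMR in its first 6.8 kb. The first along the transcript lay in intron 1 (64015179 to 64015301) with 3 CpGs at 43.9% in infant EC and 8.23% in young adult EC. Farther along, the widest DMR of the gene covered 1031 bp and 15 CpGs of the same intron (64013494 to 64014524) at 72.8% and 31.7%. These DMRs and the one between them, at 72.4% and 27.6%, formed a run that held 23 of its 26 CpGs in DMRs. Here a run is a series of DMRs with gaps of at most 2 kb. Intron 1 of *Smad6* contributed only these 3 DMRs, or 21.1 per 1000 CpGs, against 82.0 in intron 2 and 61.3 in intron 3.

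The next run extended over 12.6 kb, from 11.6 to 23.6 kb behind the transcription start site (TSS), and covered much of intron 2, exon 3 and the start of intron 3 with 18 DMRs and 59.2% of the CpGs. Of the 5 runs with several DMRs it was the most methylated, with a median of 73.6% in infant EC and 38.6% in young adult EC. Of the 12 DMRs of *Smad6* above 40% in young adult EC, 8 lay here. Its largest loss was the 99 bp DMR printed above, and its smallest loss of -17.5 percentage points was also the smallest of the gene. The DMR over exon 3 (64007508 to 64007666) covered all 78 bp of that coding exon and 81 bp of the adjoining introns, with 7 CpGs at 87.7% and 46.9%. The study designed mass spectrometry amplicons for *Smad6*, and matching their bisulfite primers to converted mm10 placed the first at 64007483 to 64007690, over this DMR. The other amplicon, at 64001023 to 64001506, overlapped a DMR of 11 CpGs in intron 3 at 71.0% and 28.2%. The mass spectrometry values were not analysed here.

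Further into intron 3 the DMRs became sparser and then crowded again. Between 26.1 and 30.6 kb behind the TSS a run of 7 DMRs had medians of 59.8% and 28.3%, with the largest loss from 58.2% to 16.7% over 7 CpGs (63992643 to 63993092). In this run a DMR of 3 CpGs at 63991986 to 63992088 stood at only 30.0% in infant EC and 12.3% in young adult EC. A pair of single DMRs followed at 33.7 kb (77.0% and 36.5%) and 36.4 kb (56.6% and 20.7%). The gap of 2.98 kb behind the latter was the widest between DMRs of the gene, while the median gap was 366 bp and 37 of the 60 gaps were at most 500 bp.

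The largest loss of the gene body lay in the following run, 17 DMRs between 39.8 and 52.6 kb behind the TSS. There 10 CpGs in 628 bp (63977015 to 63977642) went from 83.6% in infant EC to 31.3% in young adult EC, a difference of -52.3 percentage points. The DMR printed above for its 8 CpGs lay in the same run at 46.2 kb, and the whole run had medians of 63.7% and 22.8%. Young adult means were below 20% in 7 of its 17 DMRs. The lowest of these, 5 CpGs at 63971006 to 63971164, was already at 28.6% in infant EC and reached 3.62% in young adult EC.

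The last run, 14 DMRs over 13.5 kb, closed the gene and had the widest spread of levels. It contained the lowest means of the gene in both groups, at the 141 bp DMR printed above (63955850 to 63955990), and the highest, at 3 CpGs of 63953497 to 63953518 with 91.6% and 67.7%. That highest DMR is the last along the transcript and lies wholly in the 3′ untranslated region of exon 4. The neighbouring exonic DMR (63954009 to 63954064) covered 48 bp of coding sequence and 8 bp of intron 3, with 4 CpGs at 81.3% and 37.3%. The largest loss of this run, -46.4 percentage points from an infant mean of 66.4%, was at 63966925 to 63966983. Of the 8 DMRs below 10% in young adult EC, 4 lay in this run, and all 4 had been below 40% in infant EC. The 3 exonic DMRs of *Smad6* had infant means of 81.3% or more, whereas the 58 intronic DMRs had a median of 68.1%.

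**Figure D2:**
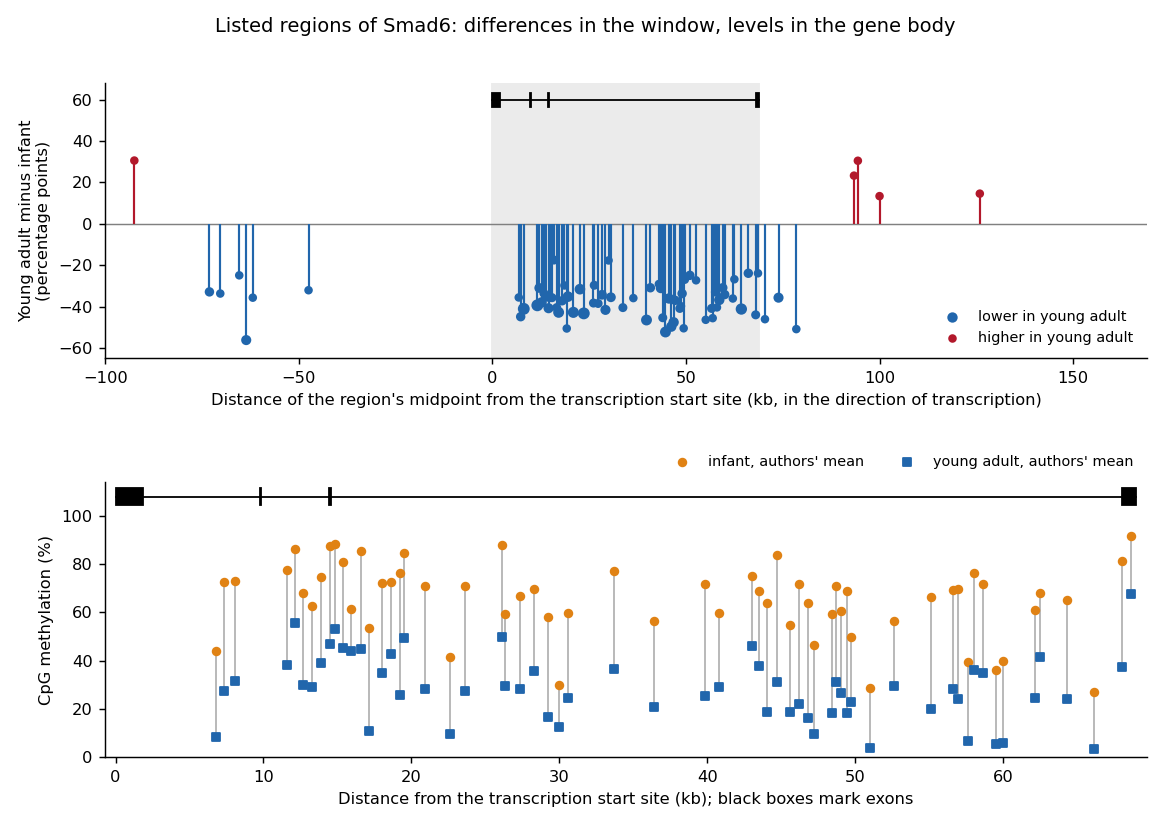
The upper panel plots the difference of each listed DMR (young adult minus infant, percentage points, larger points for more CpGs) against its distance from the Smad6 TSS in kb, with the body shaded and the exons as black boxes; the lower panel plots the authors' group means (%) of the 61 body DMRs. Every point of the shaded body lies below 0, no DMR is listed in the first 6.8 kb, and the flanks mix 9 losses with 5 gains.

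*Smad7* occupies 75367365 to 75395934 of chromosome 18 on the plus strand, with 4 exons and a coding sequence of 1281 bp. Its 26 body DMRs held 134 of 715 CpGs (18.7%) and 17.2% of the length. Infant means ran from 15.6% through a median of 48.5% to 86.6%, and young adult means from 1.06% through 11.0% to 60.8%. The median difference was -33.4 percentage points, with the middle 50% of DMRs between -36.8 and -27.6. Levels were thus lower than in *Smad6* in both groups, and 13 of the 26 DMRs were under 10% in young adult EC against 8 of 61 in *Smad6*. The young adult mean of a DMR was a median of 26.6% of its infant mean in *Smad7* and 42.4% in *Smad6*.

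The DMRs of *Smad7* were lowest in level toward the start of the gene. The first run, 7 DMRs from 5.8 to 9.4 kb behind the TSS in introns 2 and 3, had a median of 29.6% in infant EC and 4.57% in young adult EC, and all 7 were below 10% in young adult EC. Its first DMR (75373080 to 75373183) had the smallest loss of the gene, from 15.6% to 2.53% over 3 CpGs. The next, 75373500 to 75373661, had the lowest young adult mean, with 3 CpGs at 29.8% and 1.06%. The largest loss of this run went from 43.6% to 8.05% at 75376061 to 75376193. Intron 1, which is 1.3 kb long and holds 52 CpGs, had no listed DMR.

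The middle run, 8 DMRs up to 18.3 kb from the TSS, had medians of 59.6% in infant EC and 21.9% in young adult EC. The highest means of the gene in both groups stood here, at 3 CpGs of 75383213 to 75383243 with 86.6% and 60.8%. The largest loss, over 9 CpGs of 75381123 to 75381461, went from 63.5% to 17.1%. The DMR next to it (75381507 to 75381693, 6 CpGs) was at 75.8% and 48.5%, so that close neighbours could stand apart. Over the gene, neighbouring DMRs at most 500 bp apart differed by a median of 9.70 percentage points in infant EC and by up to 36.5.

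The last run, 11 DMRs from 21.0 to 27.5 kb, reached into exon 4 and had medians of 49.8% and 16.1%. It contained the DMR of *Smad7* with the most CpGs, which was also its widest, with 17 CpGs in 738 bp of intron 3 (75388713 to 75389450) at 72.9% and 23.3%. All 4 exonic DMRs of *Smad7* lay in exon 4. The DMR at 75394233 to 75394267 was wholly coding and was at 64.4% in infant EC and 31.1% in young adult EC. The DMR at 75394331 to 75394372 covered the last 35 bp of the coding sequence and 7 bp of the 3′ untranslated region, and its loss from 71.2% to 19.1% over 4 CpGs, -52.1 percentage points, was the largest of the gene. The other exonic DMRs lay in the 3′ untranslated region, with 8 CpGs at 49.8% and 13.1% (75394402 to 75394616) and 5 CpGs at 49.6% and 16.1% (75394807 to 75394919, the last along the transcript).

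**Figure D3:**
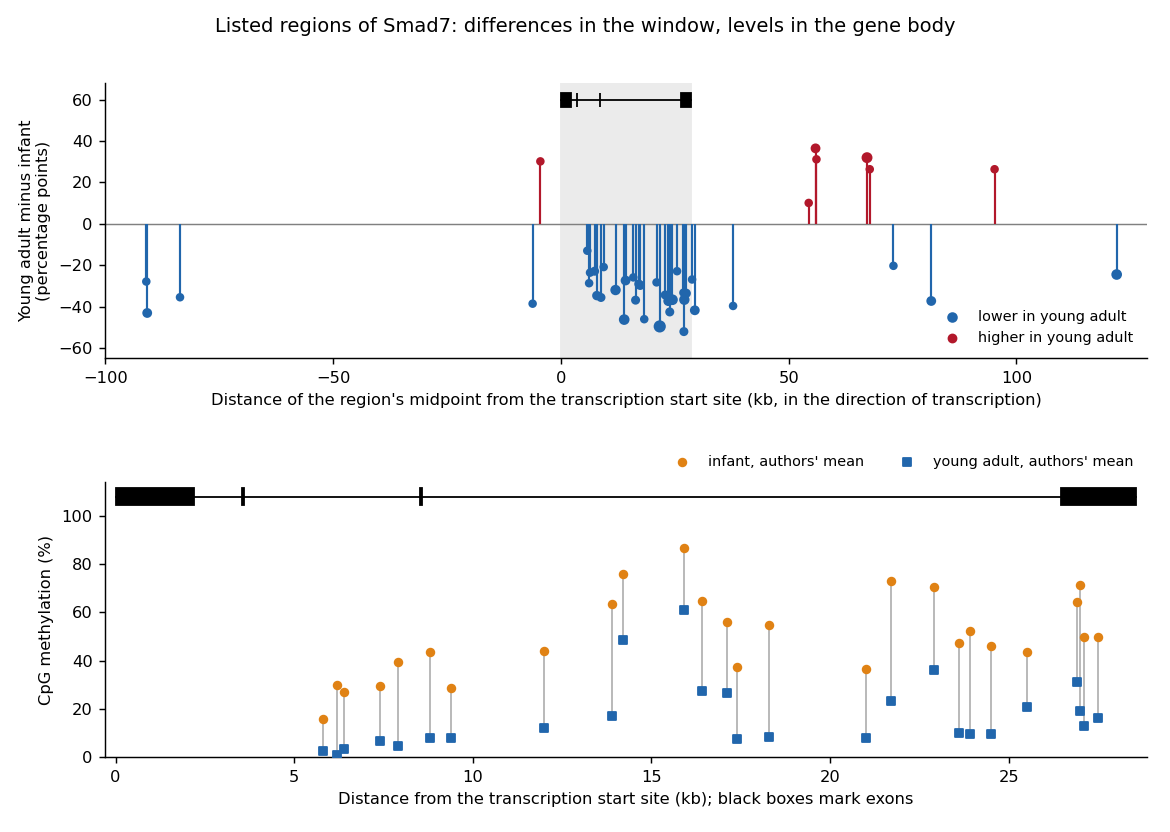
The upper panel plots the difference of each listed DMR (young adult minus infant, percentage points, larger points for more CpGs) against its distance from the Smad7 TSS in kb, with the body shaded and the exons as black boxes; the lower panel plots the authors' group means (%) of the 26 body DMRs. The 7 DMRs up to 9.4 kb from the TSS lie at 43.6% or less in infant and 8.05% or less in young adult EC, and higher levels appear farther along.

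Position along the gene went with level in opposite ways in the genes. Across the 26 DMRs of *Smad7*, distance from the TSS and infant mean had a Spearman rho of 0.49, and across the 61 of *Smad6* the value was -0.31. The size of the loss followed distance in *Smad7* (rho 0.49) and hardly in *Smad6* (-0.07). It also followed the infant mean, with a rho of 0.56 in *Smad7* and 0.34 in *Smad6* (0.39 over all listed losses). A loss cannot exceed the infant mean, and distance and level were not separated here. These rhos are descriptions across DMRs, which share the same 6 samples, are often close neighbours and are not replicates. By 4 equal parts of the gene from the TSS, *Smad6* had 14, 15, 17 and 15 DMRs with median infant means of 73.7%, 70.8%, 63.7% and 66.4%. *Smad7* had 3, 7, 6 and 10, with 27.0%, 43.6%, 55.2% and 51.0%. The first part of *Smad7* contained 315 of its 715 CpGs but 9.52 DMRs per 1000 CpGs, and the last contained 62.9.

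The CpG-rich starts of both genes were free of listed DMRs. Within 1 kb on either side of the TSS the reference holds 154 CpGs for *Smad6* and 167 for *Smad7*. The stretch without a DMR around the *Smad6* TSS measured 54.2 kb and held 892 CpGs, and most of it lay upstream, where the nearest DMR was 47.5 kb away. Around the *Smad7* TSS the stretch measured 10.1 kb with 431 CpGs, from 4.4 kb upstream to 5.7 kb downstream.

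The number of CpGs varied widely among the DMRs. In *Smad6* it ran from 3 to 15 with a median of 5, and 31 of 61 DMRs had 5 or more. The 3 DMRs with 15 CpGs lay at 63998229 to 63998728 (70.8% and 27.6%), 64010131 to 64010834 (77.6% and 38.2%) and in intron 1. In *Smad7* it ran from 3 to 17 with a median of 4, and 10 of 26 had 5 or more. Of all 8422 listed losses 14.7% had more CpGs than the *Smad6* median, whose DMRs were also longer than the listed median, at 202 bp against 131 bp, and sparser, at 2.14 against 2.94 CpGs per 100 bp. DMRs of *Smad6* with 5 or more CpGs and with fewer had nearly equal median differences of -37.0 and -36.0 percentage points. In *Smad7* these were -35.7 and -28.9, and the number of CpGs followed the size of the loss with a rho of 0.55, against 0.27 in *Smad6* and 0.27 over all listed losses.

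**Figure D4:**
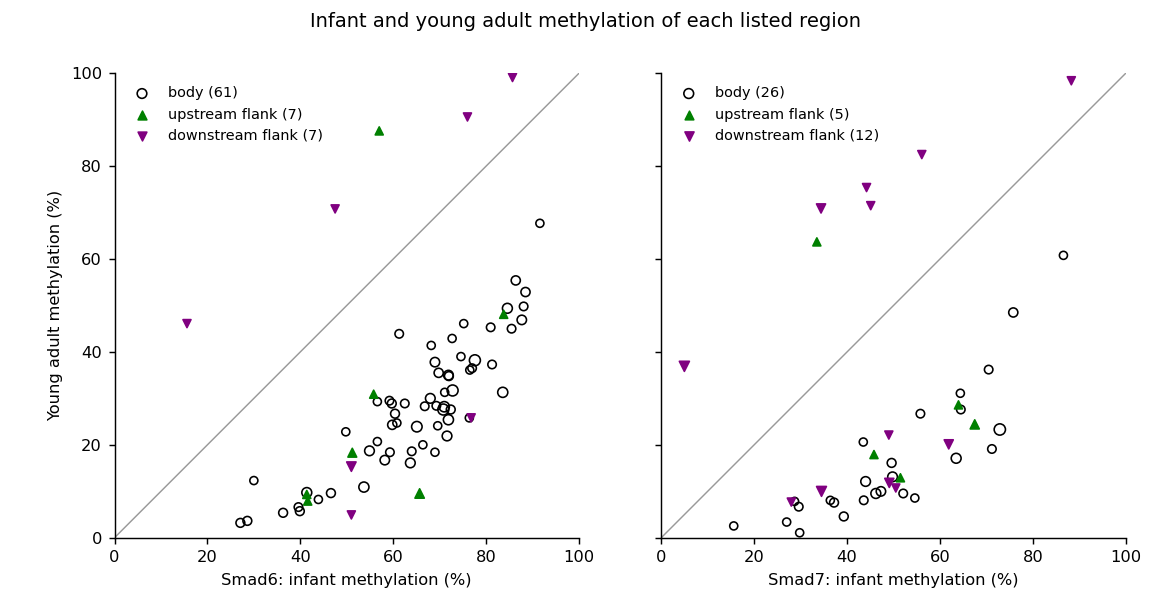
Young adult against infant methylation (authors' means, %) of each DMR of Smad6 (left) and Smad7 (right), with larger symbols for more CpGs, shapes for body and flanks and a line of equal levels. All 87 body DMRs lie below the line, and the 12 DMRs above it are all in the flanks.

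Infant and young adult levels of a DMR moved together, with a rho of 0.84 over the *Smad6* body, 0.90 over the *Smad7* body and 0.89 over all listed losses. Against the listed losses, whose medians were 61.5% in infant EC and 25.4% in young adult EC, *Smad6* was higher in both groups and *Smad7* lower, at 48.5% and 11.0%. Of the listed losses 81.0% had a higher young adult mean than the median DMR of *Smad7*. GC content was alike in both genes, at medians of 54.0% and 53.8%, and above the 50.4% of the listed losses. Among the 474 genes with more than 5 listed DMRs as counted here, *Smad6* ranked 1 by the number of CpGs in DMRs and 2 by the number of DMRs. *Smad7* ranked 20 and 23. The study's own count of such genes differs, and it had already named both genes for their clusters, so the ranks are description only. By the share of the body's CpGs in DMRs they ranked 5 and 17, where the median gene had 2.33%.

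Around *Smad6*, losses continued past the downstream end of the gene, and gains lay farther out. Upstream they did not continue from the body, and the nearest loss was 47.5 kb from the TSS. Downstream, 3 losses stood 1.4 to 9.5 kb behind the last exon. The nearest, 3 CpGs at 63951635 to 63951775, went from 51.0% to 4.90%, just outside the body edge, while the DMR just inside was the one at 91.6% and 67.7%. The largest, from 76.8% to 25.8% at 63943458 to 63943611, overlapped the predicted long noncoding RNA gene *Gm36033*. Farther downstream, 24.4 to 57.0 kb from the body, there were only gains. They were at 47.5% and 70.8% (63928658 to 63928744), 15.6% and 46.1% (63927606 to 63927634), 85.7% and 99.1% (63922024 to 63922154) and 76.0% and 90.6% (63895911 to 63896322), with 3 CpGs each. The last of these was also the member nearest to the lower edge of the window, and the next listed DMR beyond that edge (63743070 to 63743119) was another gain, from 38.3% to 70.1%, in the neighbouring gene *Smad3*.

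Upstream of *Smad6*, 6 losses lay 47.5 to 73.1 kb from the TSS, 3 of them in the long noncoding RNA gene *Scarletltr* and 2 in the predicted gene *Gm39360*. The nearest (64069525 to 64069612) was at 41.4% in infant EC and 9.31% in young adult EC. The loss in an intron of *Scarletltr* printed above (64085519 to 64085725) was larger than any in the gene body, with 7 CpGs at 65.7% and 9.52%, a difference of -56.2 percentage points. A single gain followed at 92.5 kb, from 57.0% to 87.6% at 64114529 to 64114550, and the next listed DMR outside the window was again a gain, from 13.9% to 41.6%. On both sides of *Smad6* every loss of the flank was thus nearer to the gene than the first gain.

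Around *Smad7* this order did not hold. Upstream, the nearest DMR was a gain from 33.5% to 63.7% at 75362899 to 75362933, 4.5 kb from the TSS, followed at 6.2 kb by a loss from 51.5% to 12.9% (75361163 to 75361231). Both lay in an intron of *Gm20544*, a long noncoding RNA gene on the opposite strand. The other upstream DMRs were 3 losses in introns of *Dym*, 83.6 to 91.0 kb away, with the largest from 67.5% to 24.4% over 6 CpGs at 75276553 to 75276630. The outermost of them (75276319 to 75276355) was at 45.8% and 17.9%, and the next DMR outside the window was a gain from 26.3% to 56.7%.

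Downstream of *Smad7* the losses ran on across the end of the gene. The DMR at 75396009 to 75396250, 0.2 kb past the last exon, was at 49.0% and 22.1%, the next (75396630 to 75396960) had the largest loss of this flank over 6 CpGs, from 61.9% to 20.1%, and the one 9.2 kb away was at 50.5% and 10.7%. The first pair overlapped the predicted long noncoding RNA gene *Gm41776*, which runs on the opposite strand into the end of *Smad7*. From 25.8 to 39.3 kb there were 5 gains in a row. The smallest, at 75421601 to 75421917, was nearly complete in both groups (88.3% and 98.4%). The largest of all flanks, 36.5 percentage points over 6 CpGs of 75423123 to 75423368, went from 34.4% to 70.9%, and its neighbour (75423443 to 75423528) from 44.2% to 75.4%.

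The DMR with the lowest infant mean of all members was among these gains. It held 10 CpGs in an exon of *Ctif*, a gene of cap-dependent translation on the minus strand (75434505 to 75434707), and was at 4.97% in infant EC and 36.9% in young adult EC. Another exonic DMR of *Ctif* (75435161 to 75435234) was at 45.1% and 71.5%. Deeper in *Ctif*, introns held a gain from 56.1% to 82.5% at 75462504 to 75462586 and 3 losses, of which the member nearest to the window's edge (75489203 to 75489562) was at 34.5% and 9.97%. The next listed DMR past that edge was a loss as well, from 53.6% to 23.7%.

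The 19 losses of the flanks had median means of 51.0% in infant EC and 15.3% in young adult EC, and the 12 gains 46.3% and 73.4%. A minimum of 3 CpGs was met exactly by 12 of the 19 losses and 10 of the 12 gains, but by 17 of 61 DMRs in the *Smad6* body and 9 of 26 in the *Smad7* body. Over the whole list, 52.5% of losses and 78.5% of gains had 3 CpGs, and losses and gains of the flanks had the same median of 3 CpGs. The median loss of the flanks, -35.7 percentage points, lay between those of the bodies.

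Reference windows of 200 bp centred on each DMR were searched on both strands for 10 short motifs, all as plain letters. CAGAC, the core of the element that SMAD3 and SMAD4 bind, was present in 27.9% of the windows of the *Smad6* body and 30.8% of those of *Smad7*, against 42.4% of all listed losses. In the flanks it was present in 47.4% of the 19 losses and 58.3% of the 12 gains (40.6% of all listed gains). The palindrome GTCTAGAC, which shares the letters AGAC with the shorter motif, was absent from both bodies and from the flank losses, and present in 1 of the 12 flank gains and in 0.202% of the listed losses. Of the GC-rich elements bound in response to BMP, GGCGCC stood in no window of *Smad6* and 1 of 26 of *Smad7*, and GGAGCC in 16.4% and 7.69% (13.8% of the listed losses) but in 42.1% of the flank losses and 3 of the 12 flank gains. CACCC, a core of the sites of Krüppel-like factors, which respond to blood flow in EC, was in 47.5% and 46.2% (41.2%). AGGAAG, an ETS core, was in 29.5% and 11.5% (29.3%) and the other ETS core CCGGAA in 3.28% and 3.85% (4.27%). TGATAA for GATA factors was in 8.20% of the *Smad6* windows and none of *Smad7* (9.80%), TGTTTAC for forkhead factors in 4.92% and none (5.91%), and TGANTCA for AP-1 in 3.28% and 3.85% (6.84%). These shares describe letters in the reference and were not tested.

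Other genes of the pathway were counted from a list of 37, drawn up with earlier results of these data known. Of the 37, 11 had only losses in their bodies, 7 only gains, 4 both and 15 no listed DMR. Together they had 107 losses and 26 gains. Counted with or without the other direction, 15 of the 37 had a loss and 11 a gain. For comparison, 8.49% of 26089 genes with a curated transcript had a loss and 11.4% a gain. Those genes were not matched to the list for length or number of CpGs, so no enrichment is read from this. The receptor-regulated SMADs, which carry the signal that SMAD6 and SMAD7 inhibit, had 14 gains and 2 losses. *Smad1*, a BMP-branch member, had 8 gains and 2 losses, *Smad3* of the TGFβ branch had 4 gains, and *Smad5* and *Smad9* had 1 gain each. *Smad2* and the common partner *Smad4* had no listed DMR. In the inhibitory SMADs all 87 body DMRs were losses.

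Losses of the receptor genes were concentrated in a few of them. The 5 type II receptors had 23 losses and 1 gain, of which *Bmpr2*, the main BMP type II receptor of EC, had 20 losses with medians of 70.6% in infant EC and 30.1% in young adult EC. The 7 type I receptors had 21 losses and 4 gains. Of these losses 15 lay in *Acvr1b*, which encodes the activin receptor ALK4, and 5 in *Acvrl1*, which encodes the endothelial BMP9 receptor ALK1. *Acvr1* had 3 gains and 1 loss, *Bmpr1b* and the type II receptor *Amhr2* had 1 gain each and no loss, and *Bmpr1a*, *Tgfbr1* and *Acvr1c* had no listed DMR. Over the whole list 45.9% of DMRs were losses. The 2 co-receptors had 11 losses and 3 gains, with 10 losses in *Eng* (endoglin) and 1 loss and all 3 gains in *Tgfbr3*. The 8 ubiquitin ligases had 36 losses and 2 gains, but 5 of the 8 (*Wwp1*, *Wwp2*, *Itch*, *Rnf111* and *Rlim*) had no listed DMR. *Smurf1* had 2 losses. *Nedd4l* had 18 losses and both gains, with medians over its 20 DMRs of 64.4% and 31.4%, and *Smurf2*, whose product is recruited by SMAD7, had 16 losses at 68.9% and 28.7%. The co-repressors had 14 losses, 9 of them in *Ski*, and 1 gain. Of the 5 target genes *Atoh8* had 1 gain, and *Id1*, *Id2*, *Id3* and *Hey1* had no listed DMR. Per 1000 CpGs of the body, *Bmpr2* had 29.0 DMRs, *Acvr1b* 23.8, *Smurf2* 21.7 and *Nedd4l* 4.59, against 48.5 in *Smad6* and 36.4 in *Smad7*.

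**Figure D5:**
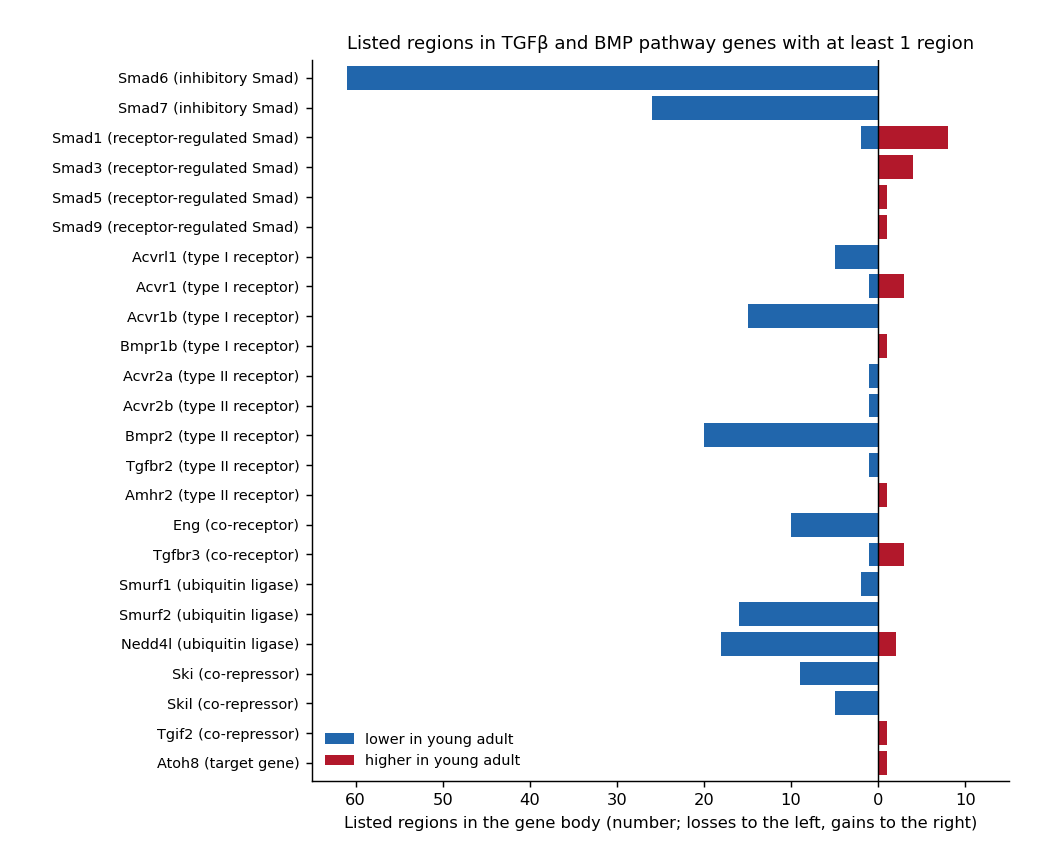
Number of listed DMRs in the body of each of the 37 counted TGFβ and BMP pathway genes with at least 1 (x axis, losses to the left of 0, gains to the right), with Smad6 and Smad7 on top. The 61 and 26 losses of the inhibitory SMADs stand above the receptor-regulated SMADs, whose 16 DMRs are mostly gains.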

How the data were processed

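The deposited list of DMRs gives, per the file headers, a mean for each group, read here as a methylation fraction and shown as percent. The headers do not say how calls, CpGs and samples were averaged. The authors aligned converted reads to converted mm10 with BWA 0.6.1, removed duplicates and left out read ends touched by the transposase. DMRs were called by them on unsmoothed values with bsseq (R 3.2.2) from CpGs covered at least 8-fold in at least 2 of 3 samples per group, with at least 3 consecutive CpGs at p below 0.05 and means at least 10% apart. Averaging hides the spread between samples, and the depth behind a DMR is unknown.

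Samples were grouped by their age label and enter only as these means. Positions were made 1-based, from the C of the first CpG to the last base of the last CpG. CpGs, exons and gene names came from RefSeq on GRCm38 (mm10), using Python 3.11.15, numpy 2.4.6 and pandas 2.3.3, and the functions that place, join and count regions were tested on simulated regions.

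The members and lists were chosen with earlier results of these data known. In each body the DMRs named were those of largest and smallest difference, lowest and highest means, most CpGs and greatest width, the first and last, all exonic DMRs and the largest loss of each run. In the flanks they were all gains, the largest loss on each side and the nearest and outermost DMRs. Others were chosen after their values were seen. Alternatives changed the minimum difference, the minimum number of CpGs, placement, joining of neighbours, flank length and density unit. A gene of the pathway list is not reported here.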

Additional observations from a re-analysis of the deposited data

How the results depend on the processing

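With at least 5 CpGs per DMR, the bodies kept 31 DMRs in *Smad6* and 10 in *Smad7*, the body exceeded the flanks 19.9-fold in *Smad6*, and 77.8% of flank DMRs were losses. With neighbours at most 500 bp apart joined, the bodies had 25 and 14 DMRs and the ratio in *Smad6* was 3.44. Counted per kb, the ratios were 12.6 and 10.7. These were 9 of 37 alternatives. In the other 28 a count or ratio stayed within 1.5-fold, a median difference within 5 percentage points and the share of flank losses within its interval. No median difference of a body could change sign under these alternatives, because every body DMR was a loss. Within these bounds, the ratio in *Smad7* was 4.41 with neighbours joined and 5.21 with flanks of 50 kb, where the share of losses in the flanks was 50%. The median differences stayed between -39.4 and -36.8 percentage points in *Smad6* and between -35.7 and -33.3 in *Smad7*. The share of losses in the flanks, 61.3%, had a Wilson 95% interval of 43.8 to 76.3%. That interval treats the 31 DMRs as independent, but they share the same samples and some are close neighbours. It was therefore used only as a wide tolerance for the alternatives and measures no spread between samples. Leaving out a sample was not run, and no spread could be given, because the file analysed holds group means. No paired analysis was possible because the columns carry no replicate.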
